A study of Mus musculus with 14 samples.

Results

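The change of m6A relative to RNA level was measured for every gene listed both in the m6A-RIP table and in the input (RNA-seq) table of cultured mouse muscle stem cells (MuSCs). The measure was the m6A-to-input ratio of Lin28a+ MuSCs divided by that of control MuSCs, estimated as the interaction of cells and assay. Of 14837 genes in the input table and 9416 in the m6A-RIP table, 8055 were in both, and all 8055 could be tested. These genes had 577 changes of the ratio at a Benjamini-Hochberg adjusted p under 0.05, of which 251 were higher and 326 were lower in Lin28a+ MuSCs (3.12%, 4.05% and together 7.16% of the genes tested). Library totals in place of TMM factors as the scale gave 206 higher and 856 lower genes.

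The 8 libraries used, of 14 in the series, were 2 input and 2 m6A-RIP libraries from each of the groups. All came from mouse skeletal muscle MuSCs kept on Matrigel in DMEM with fetal bovine serum, and the labels name no treatment other than the pull-down. Lin28a+ MuSCs were obtained by sorting from Lin28a-CreERT2; LSL-tdTomato mice, in which the Lin28a promoter drives an inducible Cre recombinase and tdTomato marks cells in which it has acted. The labels give the other group only as control. The age of the mice and the number of animals behind each library are not given in the sources used here, so p-values measure the spread between these libraries, which may be technical. The transcript of Lin28a was not analysed here and could not serve as a check of the sort.

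N6-methyladenosine (m6A) is a methyl mark on adenosines inside mRNA. A complex built on Mettl3 and Mettl14 writes it, Fto and Alkbh5 can remove it, and YTH-domain and Igf2bp proteins bind transcripts that carry it, through which the mark acts on mRNA stability, splicing and translation. In m6A-RIP (MeRIP-seq), fragmented RNA is pulled down with an antibody to m6A and sequenced. A pull-down count follows both the share of molecules that carry the mark and the amount of the RNA, and the input is what allows them to be separated. Lin28a is an RNA-binding protein of embryonic cells, and MuSCs are the stem cells from which muscle fibres are repaired.

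The m6A-RIP libraries held 31830638 and 21350962 counts in control against 23747038 and 31173570 in Lin28a+ MuSCs, and the input libraries held from 4842915 to 6220960 estimated counts. H19, an imprinted non-coding RNA, took 6.24% and 6.12% of the control m6A-RIP counts and 9.98% and 9.66% of the Lin28a+ ones, and its ratio was not analysed here. The input columns of the Lin28a+ group bear the names of m6A-RIP libraries. On the log2(CPM + 1) scale (CPM, counts scaled to a common library total) they correlated with the control inputs across the 8055 genes at r = 0.949, and with the Lin28a+ m6A-RIP libraries at no more than r = 0.520. The 9 measured myogenic markers summed to 9645 CPM of input in control and 11796 CPM in Lin28a+ MuSCs, with Myog going from 760.8 to 2811 CPM and Cdh15 from 1342 to 2330 CPM while Des went from 1686 to 1195 CPM, Myf5 from 452.5 to 200.1 CPM and Megf10 from 398.8 to 87.7 CPM. The 2 measured of 7 listed endothelial markers summed to 0.558 and 0.761 CPM and the 5 measured of 7 macrophage markers to 2.71 and 2.02 CPM. Among 5 measured pericyte or smooth muscle markers, Acta2 made up most of a sum of 5501 CPM in control and 7687 CPM in Lin28a+ MuSCs (5353 and 7490 CPM), whereas Rgs5 went from 2.23 to 0.202 CPM and Myh11 was near 0. The 5 measured fibro-adipogenic markers summed to 149.3 and 77.7 CPM, mostly Gsn (144.3 and 64.0 CPM), while Ly6a went the other way, from 4.21 to 13.1 CPM, and the 2 measured tenocyte markers to 67.8 and 145.4 CPM, mostly Scx. The part of such cells in the ratio was not tested.

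For most genes whose RNA changed, the m6A-RIP count passed in the same direction. Between the groups, RNA changed in 26.7% of the genes upward and in 26.8% downward, and the m6A-RIP count in 37.1% upward and 37.8% downward (edgeR's quasi-likelihood test, adjusted p under 0.05). The libraries are from bulk RNA, so a different make-up of the cells and a different amount of RNA per cell cannot be told apart. Both passed in the same direction in 3757 genes, and in opposite directions in 172. In 3867 genes the RNA changed and the ratio did not pass. Across genes, the m6A-RIP change rose by 0.824 per unit of RNA change on the log2(CPM + 1) scale (r = 0.813, where genes are not independent replicates). This slope was 0.758 with a pseudocount of 0.1 CPM and 0.858 over the 7218 genes that reached 10 counts in all 8 libraries. Among the 189 genes whose RNA was lower by over 2 on the log2 scale, the median RNA change was -3.08 and the median m6A-RIP change -1.95. Among the 63 genes whose RNA was higher by over 2, the medians were 3.09 and 2.55.

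**Figure D1:**
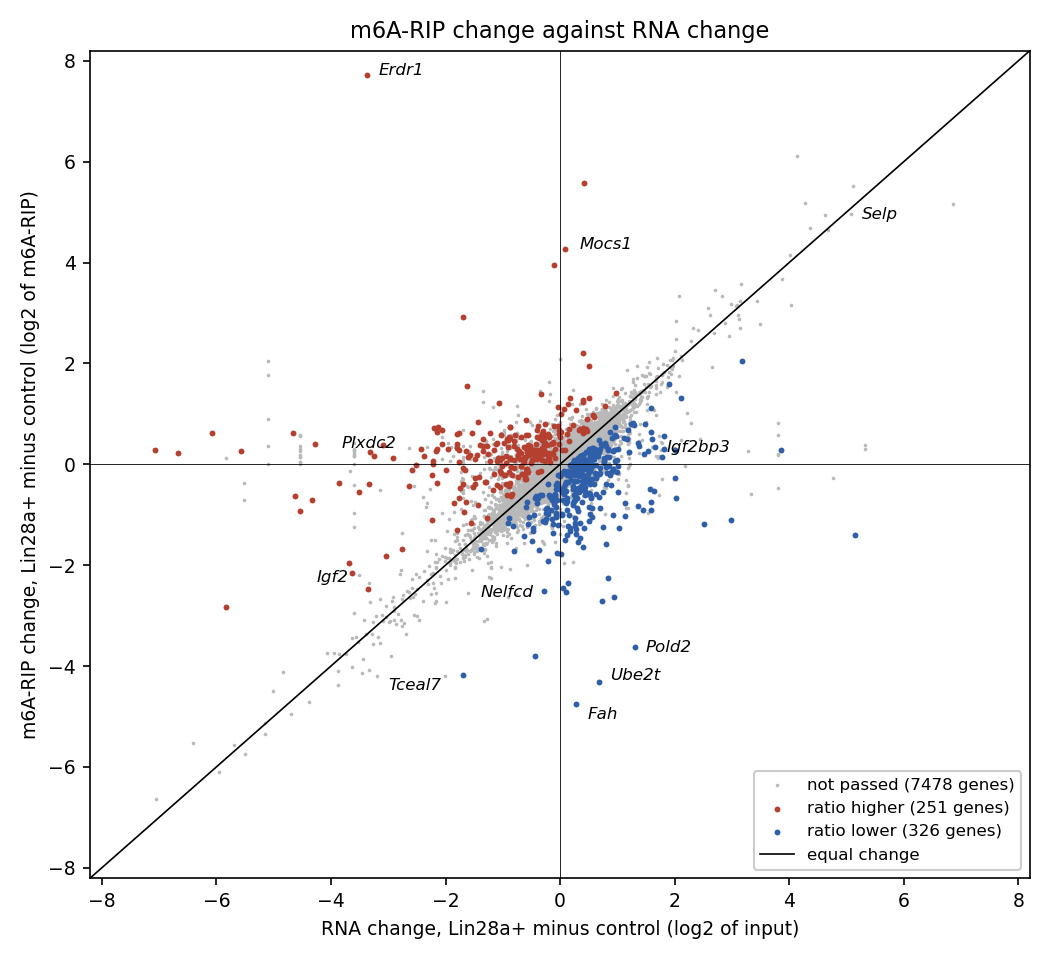
Change of the m6A-RIP count (vertical axis, log2, Lin28a+ minus control) against the change of RNA (horizontal axis, log2 of input) for 8055 genes; the line marks equal change, and genes with few input counts stand at their fitted values. Most genes lie along the line, 251 genes (red) lie above it and 326 (blue) below it at an adjusted p under 0.05.

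The genes with the largest RNA changes show how closely the signals could run together. Selp, which encodes the adhesion molecule P-selectin, had 1.57 and 1.48 CPM in the control inputs and 53.5 and 51.8 CPM in the Lin28a+ inputs. Its m6A-RIP levels were 3.58 and 3.47 CPM in control against 102.7 and 103.4 CPM in Lin28a+ MuSCs. The groups were far apart in both assays, yet the ratio changed by only -0.11 on the log2 scale (95% interval -0.58 to 0.37; adjusted p = 0.957, edgeR's quasi-likelihood test). Scarf2, a scavenger receptor family gene, went from 0.878 and 1.38 to 43.1 and 40.8 CPM of input and from 2.17 and 2.15 to 88.1 and 96.6 CPM of m6A-RIP, a change of the ratio of 0.41 with an interval of -0.35 to 1.17. Sim2, a bHLH-PAS transcription factor among the most strongly falling genes, ran apart: its input went from 27.4 and 30.1 to 0.659 and 0.482 CPM and its m6A-RIP level only from 32.4 and 33.9 to 4.72 and 3.98 CPM. The Lin28a+ input of Sim2 was at most 3 counts in each library, so no fold of its ratio is given.

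The 577 changes of the ratio came about in different ways. In 163 genes RNA and m6A-RIP moved in opposite directions (74 with a higher and 89 with a lower ratio). In 133 genes the m6A-RIP count passed and the RNA did not (48 higher, 85 lower), and in 111 genes the RNA passed and the m6A-RIP count did not (56 higher, 55 lower). In the remaining 170 both moved the same way, and in 128 of these the m6A-RIP count moved less than the RNA. A lower ratio stood with a higher RNA in 217 genes and a higher ratio with a lower RNA in 185. The ratio and the RNA change share the input libraries, so these counts are a description. Changes over 2-fold numbered 210, 115 of them upward and 95 downward, and 1367 genes passed at an unadjusted p under 0.05.

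Genes whose m6A-RIP count fell while their RNA rose or did not pass headed the lower ratios. Fah (ENSMUSG00000030630), which encodes the last enzyme of tyrosine breakdown, had 12.5 and 12.2 CPM of input in control against 15.9 and 14.3 CPM in Lin28a+ MuSCs. Its m6A-RIP levels were 14.7 and 14.1 CPM in control against 0.674 and 0.353 CPM in Lin28a+ MuSCs. The RNA did not pass (log2 change 0.28), the m6A-RIP groups did not overlap, and the ratio changed by -5.03 on the log2 scale (SE 0.27; adjusted p = 1.31e-06, edgeR's quasi-likelihood test). Pold2 (ENSMUSG00000020471), a subunit of the replicative DNA polymerase delta, had 34.0 and 32.2 CPM of input in control against 84.9 and 79.8 CPM in Lin28a+ MuSCs. Its m6A-RIP count went the other way, from 254.0 and 242.2 CPM to 20.7 and 17.2 CPM. The Pold2 ratio changed by -4.92 (SE 0.12; adjusted p = 4.77e-09, edgeR's quasi-likelihood test).

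Nelfcd (ENSMUSG00000016253), a subunit of the negative elongation factor that holds RNA polymerase II near promoters, had 38.5 and 36.9 CPM of input in control against 41.9 and 40.3 CPM in Lin28a+ MuSCs. Its m6A-RIP levels were 279.1 and 271.0 CPM against 45.4 and 42.7 CPM, and the ratio changed by -2.65 (SE 0.09; adjusted p = 4.62e-08, edgeR's quasi-likelihood test). Coro7, a coronin of the Golgi, changed by -2.49 with an RNA change of 0.14 that did not pass. Tceal7, of the TCEAL family of nuclear proteins, was a case where both fell: input went from 32.0 and 32.5 to 9.69 and 10.2 CPM, and m6A-RIP from 168.2 and 171.7 to 8.93 and 8.50 CPM. The m6A-RIP count thus fell further than the RNA, and the ratio changed by -2.48 (SE 0.13). Rfc4, a subunit of the clamp loader, and Mrpl35, a mitochondrial ribosomal protein, had RNA that rose with ratio changes of -2.49 and -2.39. Among genes with a lower ratio and an RNA change under 0.1 on the log2 scale, 4 had the m6A-RIP counts that fell most. These were Mre11a, the phosphoinositide phosphatase gene Mtmr2, the annexin gene Anxa3 and Tmem198b. Their ratio changes were -2.50, -1.80, -1.70 and -1.59 in that order.

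Genes of low RNA in control were also among the leading opposite changes. Gli2, a transcription factor of Hedgehog signalling, had 0.285 and 0.5001 CPM of input in control against 15.8 and 15.2 CPM in Lin28a+ MuSCs, while its 5 m6A-RIP rows summed to 22.1 and 23.7 CPM in control against 8.30 and 7.80 CPM in Lin28a+ MuSCs. The groups did not overlap in either assay. Gli2 and Rab11fip4 had at most 3 counts in each control input, so only their m6A-RIP changes of -1.403 and -1.11 are given.

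Genes whose RNA fell while the m6A-RIP count did not were prominent among the higher ratios. Plxdc2 (ENSMUSG00000026748), a transmembrane protein of the plexin-domain-containing family, had 44.5 and 45.2 CPM of input in control against 9.05 and 10.3 CPM in Lin28a+ MuSCs. Its m6A-RIP levels were 132.2 and 130.2 CPM in control against 133.3 and 113.7 CPM in Lin28a+ MuSCs. The inputs were far apart, the m6A-RIP groups overlapped, and the ratio was 2.24 higher (SE 0.18; adjusted p = 2.50e-05, edgeR's quasi-likelihood test). The matrix metalloproteinase gene Mmp19 (2.20), the membrane-shaping gene Reep1 (1.84), the anoctamin gene Ano5 (1.78) and the M-band gene Myom2 (1.75) followed the same course, each with RNA that fell by over 1 on the log2 scale. Ppp1ccb had a ratio 2.40 higher, with inputs of 14.5 and 20.04 CPM in control against 6.14 and 3.87 CPM in Lin28a+ MuSCs. As a near-identical copy of Ppp1cc, whose reads counting could split, Ppp1ccb is uncertain.

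A rise of the m6A-RIP count over an RNA that did not pass was seen in fewer of the named genes. Mocs1, an enzyme of molybdenum cofactor synthesis, had 4.37 and 4.75 CPM of input in control against 4.38 and 5.57 CPM in Lin28a+ MuSCs, and its m6A-RIP levels went from 1.22 and 1.87 CPM to 25.9 and 27.6 CPM. The ratio was 4.18 higher (SE 0.32; adjusted p = 2.05e-05, edgeR's quasi-likelihood test). Ppp1r13b, a gene of the p53-binding ASPP family, had 10.5 and 8.76 CPM of input in control against 8.95 and 8.78 CPM in Lin28a+ MuSCs, with m6A-RIP levels of 0.471 and 0.468 CPM against 4.21 and 9.21 CPM. Its Lin28a+ m6A-RIP libraries lay wide of each other, and the ratio was 4.06 higher (SE 0.60). That both lay above control was required, relative to mean input, by the rule that named Ppp1r13b. Apeh, an acylpeptide hydrolase, differed in that its RNA passed too, with a change of 0.40 beside an m6A-RIP change of 2.20. Pdk2, a kinase that shuts down pyruvate dehydrogenase, the circadian repressor Nr1d1 and Rabep2, an effector of Rab GTPases, had an RNA change under 0.1. Their ratios were 1.18, 1.03 and 0.98 higher. The call of Nr1d1 was lost in 4 of 18 alternatives and that of Rabep2 in 2.

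Erdr1 (ENSMUSG00000095562) had the largest higher ratio among the opposite changes. Its input was 28.2 and 35.7 CPM in control against 2.93 and 3.21 CPM in Lin28a+ MuSCs, and its m6A-RIP count 0.471 and 0.328 CPM in control against 76.3 and 87.8 CPM in Lin28a+ MuSCs. The groups did not overlap in either assay, with a ratio 11.08 higher (SE 0.27). Erdr1 lies in a repeated stretch at the pseudoautosomal boundary, so its reads are hard to place and its value is uncertain. Sorcs1, Adgrg6 and Slc44a4, which the same rule named, had at most 3 counts in each Lin28a+ input and get no fold. Their m6A-RIP levels rose by 0.29, 0.23 and 0.62 on the log2 scale. In all, 24 of the 577 calls had at most 3 counts in both input libraries of a group, and 553 calls (230 higher, 323 lower) did not.

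**Figure D2:**
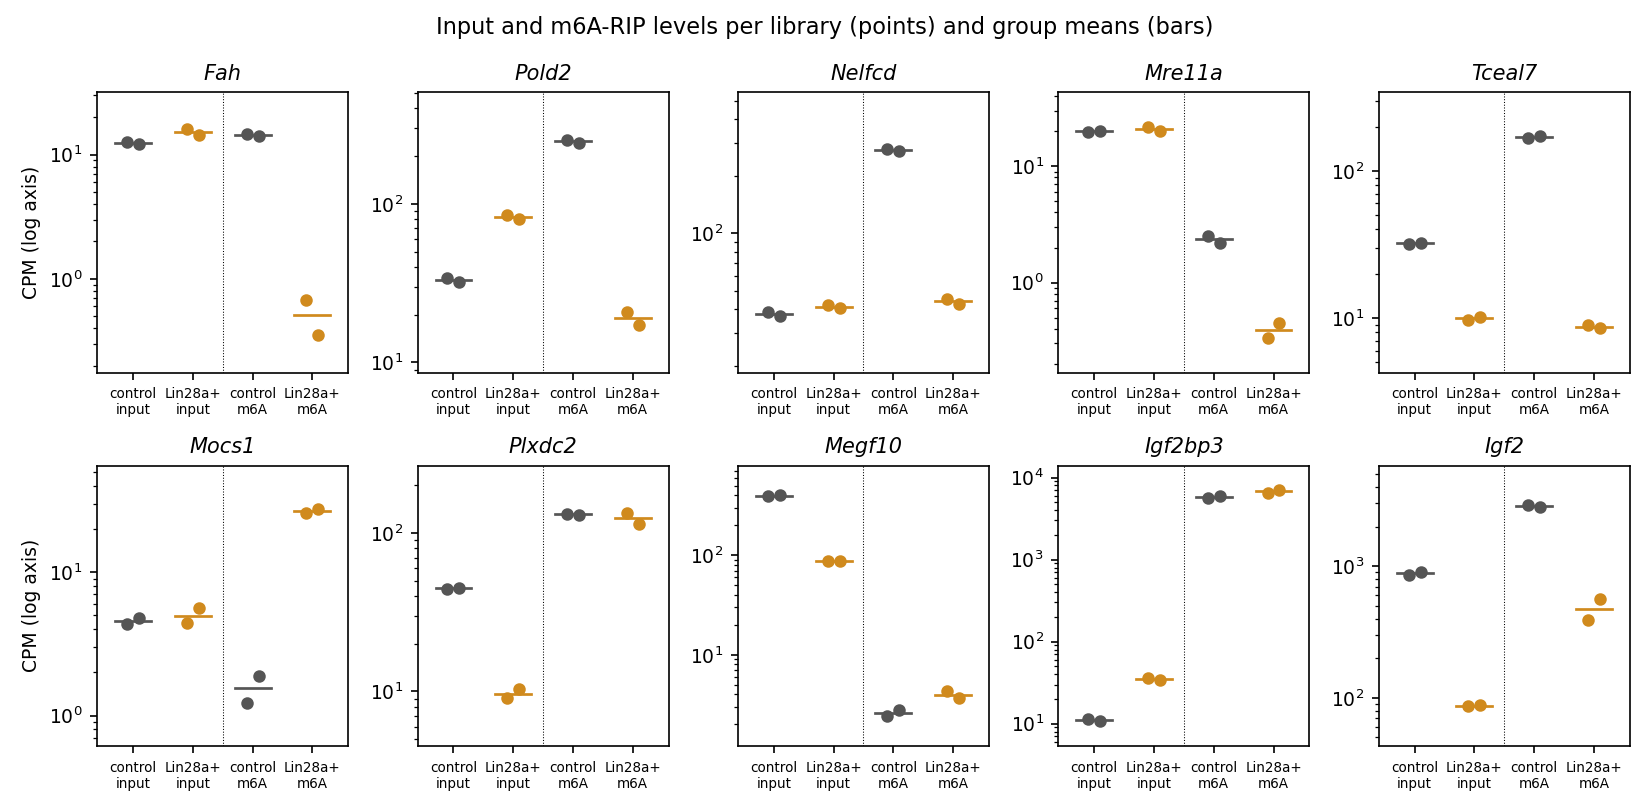
Input and m6A-RIP levels (CPM, log axis) of 10 genes in each library (points) with the mean of each group (bars); control in grey, Lin28a+ in orange. In Fah, Nelfcd and Mre11a the inputs of the groups lie close together and the Lin28a+ m6A-RIP level lies far below control, whereas in Plxdc2 the inputs are apart and the m6A-RIP levels overlap.

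Among the genes that write, erase and read m6A, Igf2bp3 was the one whose own ratio passed. Of 10 tested writers, 0 passed by edgeR's quasi-likelihood test, by DESeq2 or at an unadjusted p under 0.05 (1 was lower with library totals), with a median change of -0.08 beside -0.02 over all genes tested. Mettl3, the catalytic subunit, had 4.07 and 5.53 CPM of input on average in control and Lin28a+ MuSCs and a change of the ratio of -0.33, and Mettl14 a change of 0.13. Of 13 tested erasers and readers, the list that holds Alkbh5 (0.20, adjusted p = 0.0851) and Fto (-0.05), 1 passed, lower, in edgeR's quasi-likelihood test (7.69%, near the 7.16% of all genes). With library totals 2 of them were lower, and Alkbh5 passed in 2 of 18 alternatives.

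Igf2bp3 (ENSMUSG00000029814) is the m6A-binding protein studied here together with Lin28a. Its input was 11.3 and 10.7 CPM in control against 35.8 and 34.3 CPM in Lin28a+ MuSCs, and its m6A-RIP count 5557 and 5961 CPM in control against 6540 and 7008 CPM in Lin28a+ MuSCs. Both rose without overlap between groups, the RNA by 1.66 and the m6A-RIP count by 0.34 on the log2 scale. The ratio therefore changed by -1.32 (SE 0.14; adjusted p = 0.000181, edgeR's quasi-likelihood test), and it did not pass with limma-voom. Igf2bp3 has 1 m6A-RIP row, whose level stood far above its input. For Igf2bp2, mean control levels were 28.3 CPM of input and 89.0 CPM of m6A-RIP. Whether all reads of the Igf2bp3 row come from Igf2bp3 mRNA was not tested. Other genes the study turns on showed no change of the ratio past the threshold: Usp1 changed by -0.02, Fancm by 0.27, Bard1 by 0.18, Fbxw7 by -0.28, Igf2bp2 by -0.08 and the stress granule scaffold G3bp1 by -0.20, which passed in 3 of 18 alternatives. For Usp1, a deubiquitinase of the Fanconi pathway, inputs of 37.3 and 38.9 CPM in control against 49.3 and 52.3 CPM in Lin28a+ MuSCs stood beside m6A-RIP levels of 107.0 and 98.1 CPM and 126.7 and 122.6 CPM, and the 95% interval of the change was -0.22 to 0.19. For Fancm, a helicase of that pathway, the SE was larger (0.27) at a mean input of 4.48 CPM in control and 2.54 CPM in Lin28a+ MuSCs. H19, Igf2bp1, Twist2 and Tia1 were not tested.

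Lists of DNA replication and of most repair pathways had more lower than higher ratios. Their RNA rose more often than it fell (21 higher and 1 lower of 28 replication genes, 12 and 3 of 39 Fanconi and homologous recombination genes), and over all genes lower ratios were more frequent where RNA was higher. They made up 9.07% of the 1025 genes with an RNA change of 0.5 to 1, 12.5% of the 265 with one of 1 to 2, and 3.68% of the 4887 between -0.5 and 0.5. The ratio and the RNA change share the input libraries, and the part of the RNA change in the counts of these lists was not tested. In the DNA replication list 0 of 28 tested genes were higher and 5 were lower (17.9%, and 8 lower with library totals), beside 3.12% and 4.05% of all genes tested, and the median change was -0.20. After Pold2 came Rfc4, with inputs of 9.88 and 10.2 CPM in control against 30.2 and 31.0 CPM in Lin28a+ MuSCs and m6A-RIP levels of 53.7 and 54.8 CPM and 27.4 and 26.6 CPM. The RNA rose, the m6A-RIP count fell, and the groups did not overlap in either. The other members were chosen to be named after their values were seen: Dut, which clears dUTP (-2.35), the polymerase epsilon subunit Pole4 (-0.72, lost in 3 of 18 alternatives) and the origin licensing factor Cdc6 (-0.52, a call lost in 11 of 18 alternatives). RNA rose in all 5.

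In the Fanconi and homologous recombination list 1 of 39 genes was higher and 5 were lower (15.4% past the threshold, beside 7.16%), with a median of -0.16. Ube2t, the ubiquitin-conjugating enzyme of the Fanconi pathway, had 3.57 and 3.93 CPM of input in control against 5.98 and 6.27 CPM in Lin28a+ MuSCs, with m6A-RIP levels of 20.01 and 19.6 CPM and 1.01 and 0.834 CPM. Its ratio changed by -5.00 (SE 0.25; adjusted p = 1.08e-06, edgeR's quasi-likelihood test). Mre11a, the nuclease of the MRN complex at double-strand breaks, had inputs of 19.8 and 20.1 CPM in control against 21.7 and 19.9 CPM in Lin28a+ MuSCs while its m6A-RIP level went from 2.51 and 2.20 CPM to 0.337 and 0.449 CPM. The other lower members, named after their values were seen, were Fancd2 (-1.05, lost in 1 of 18 alternatives), the endonuclease subunit Eme1 (-1.02) and Fanca (-0.98, lost in 10 of 18). Each had RNA that rose. Rmi2, of the complex that dissolves recombination intermediates, was the higher member (1.44, lost in 4 of 18 alternatives).

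Of 29 mismatch and excision repair genes 0 were higher and 4 were lower (13.8% past the threshold, with a median of -0.05). Among them were Gtf2h4 (-1.18) and Ercc1 (-0.87) of nucleotide excision repair. The ligase Lig1 (-0.66), named after its value was seen, lost its call in 2 of 18 alternatives. Its rows ranged from -1.33 to -0.11, and those at -0.35 and -0.11 did not pass. Gtf2h4 input was 6.85 and 7.25 CPM in control against 12.7 and 11.9 CPM in Lin28a+ MuSCs, against m6A-RIP levels of 596.8 and 597.2 CPM and 423.7 and 427.7 CPM. Of 23 checkpoint and end-joining genes 0 passed in edgeR's quasi-likelihood test or with DESeq2, 1 was higher and 5 were lower at an unadjusted p under 0.05, and the median was -0.19. With library totals 4 of them were lower, and 2 with TMM factors over all 8 libraries or with totals without H19. Among 42 mitosis and cell cycle genes 2 were higher and 1 was lower (7.14% past the threshold, near the 7.16% of all genes, and 2 and 5 with library totals), with a median of -0.00. Cdk4 and Cdk6 are kinases that act at the same step of G1. Cdk6 RNA fell from 59.4 and 61.1 to 24.3 and 23.3 CPM while its m6A-RIP count rose from 7.23 and 6.18 to 8.67 and 7.67 CPM (ratio 1.72 higher), and Cdk4 RNA rose from 184.5 and 191.5 to 288.3 and 294.8 CPM with m6A-RIP levels of 116.0 and 122.5 against 121.6 and 125.1 CPM (ratio change -0.46). E2f3 was 0.63 higher, a call lost in 5 of 18 alternatives.

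Ribosomal protein and respiratory chain genes also had more lower than higher ratios. RNA rose in 36 and fell in 1 of the 41 ribosomal protein genes tested, rose in 49 and fell in 0 of the 53 respiratory chain genes, and rose in 15 and fell in 3 of the 18 histone genes, and its part in the counts was not tested here either. Of 41 tested ribosomal protein genes 1 was higher and 10 were lower (26.8% past the threshold, beside 7.16% of all genes), with a median of -0.13, and 7 of the 41 had a value above 0. This became 1 higher and 20 lower with library totals and 1 and 7 with DESeq2. Rps13 input was 231.9 and 226.8 CPM in control against 282.0 and 278.1 CPM in Lin28a+ MuSCs, and its m6A-RIP level 8.32 and 8.48 CPM against 3.24 and 3.14 CPM. The Rps13 ratio changed by -1.56, followed by Rpl39 (-1.49, named after its value was seen) and Rps6 (-1.16). Ribosomal protein genes have many processed copies in the genome, whose reads the counting could split, so their values are uncertain. Rpl5 was the higher member (0.45, lost in 2 of 18 alternatives).

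Of 53 respiratory chain genes 1 was higher (Uqcr11, 0.21, a call lost in 11 of 18 alternatives) and 8 were lower (17.0% past the threshold, beside 7.16%), with a median of -0.08. This became 0 higher and 25 lower with library totals and 0 and 5 with DESeq2. Cox7a2, a subunit of cytochrome c oxidase, had 298.4 and 283.9 CPM of input in control against 429.0 and 409.4 CPM in Lin28a+ MuSCs, and m6A-RIP levels of 31.6 and 34.1 CPM against 17.7 and 16.4 CPM. Input rose and m6A-RIP fell, for a ratio change of -1.35 (SE 0.08). Cox6c of the same enzyme changed by -1.24, with input of 149.2 and 151.2 against 190.0 and 186.4 CPM. Of 18 TCA cycle and pyruvate genes 16.7% passed: Pdk2 was higher, and Cs, the citrate synthase (-0.35), and Idh2 (-0.24, lost in 7 of 18 alternatives) were lower. These counts became 1 higher and 8 lower with library totals and 1 and 1 with DESeq2. Replication-dependent histones had 1 higher (H3c14, 2.29) and 4 lower of 18 (27.8%), led by H3c15 (-2.19) and H2bc8 (-1.26) and, named after their values were seen, H4c4 (-0.79, lost in 7 of 18 alternatives) and H1f2 (-0.29). Histone genes are near-identical copies that share reads, so single members are uncertain.

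**Figure D3:**
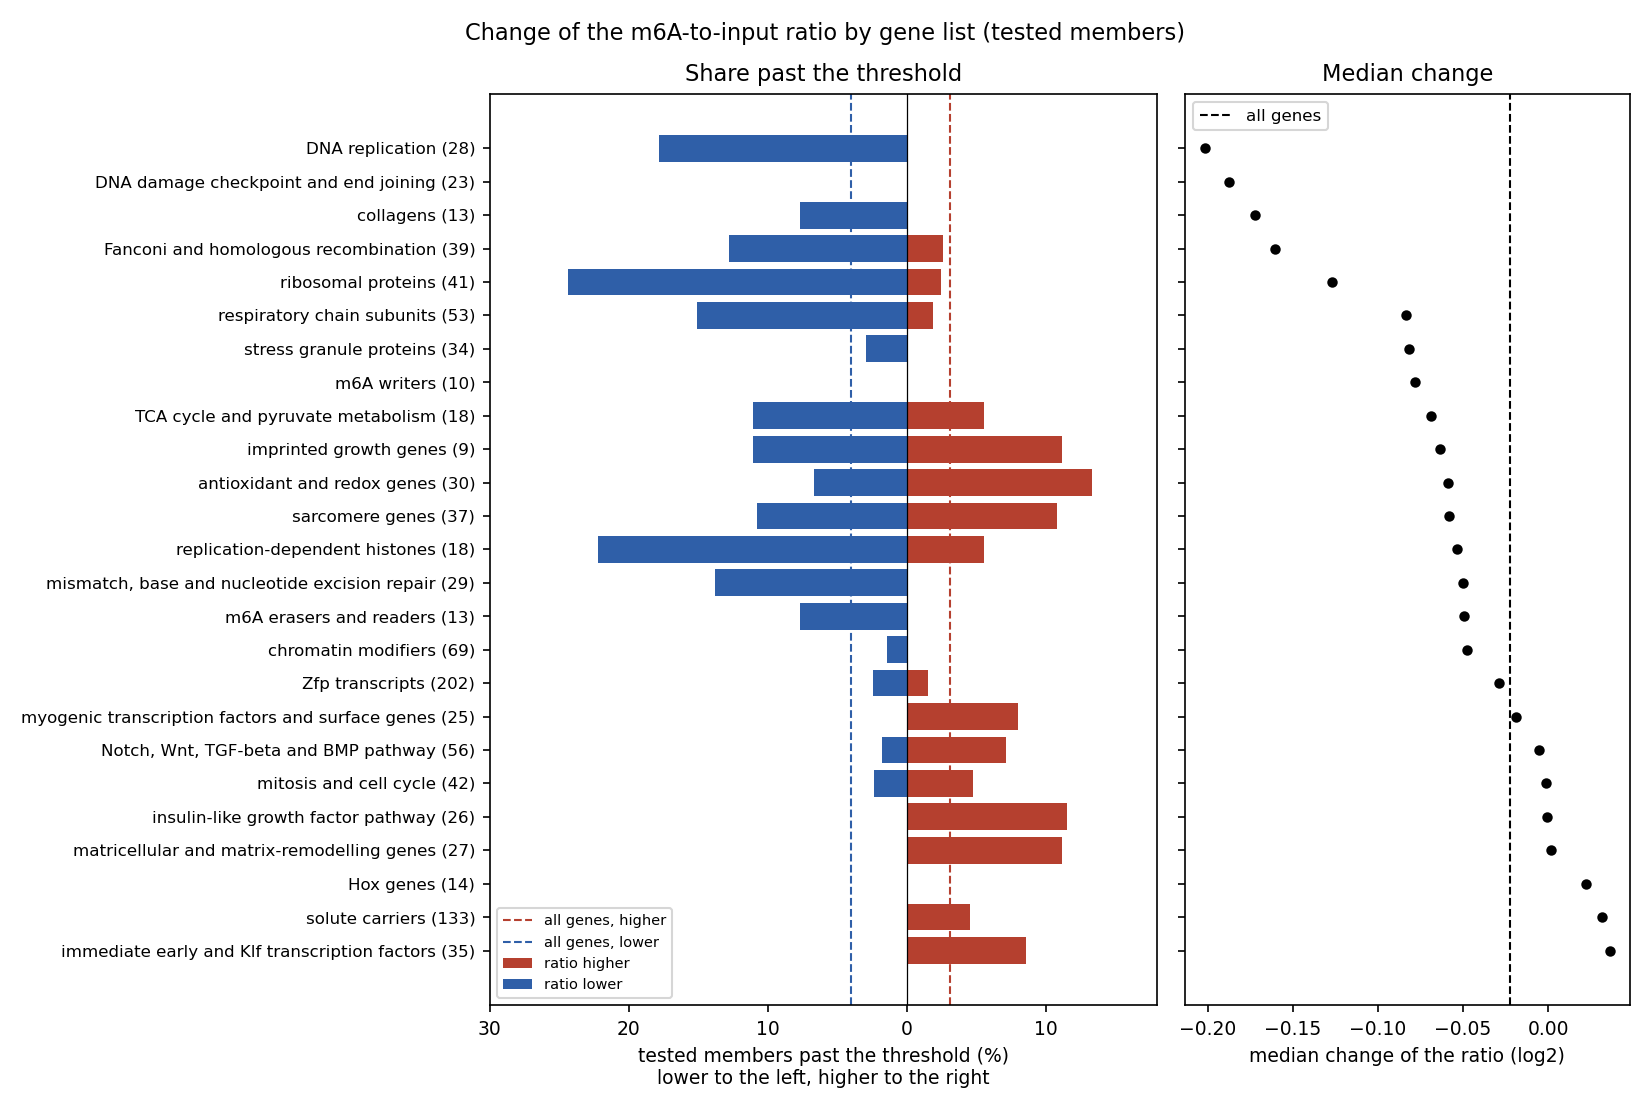
Share of the tested members of 25 gene lists whose m6A-to-input ratio was higher (red, to the right) or lower (blue, to the left) in Lin28a+ MuSCs, with dashed lines at the shares over all genes (3.12% and 4.05%), and the median change of each list (log2) beside them; the number of tested members stands in brackets. DNA replication, Fanconi, ribosomal protein and respiratory chain genes have more lower than higher members, and solute carriers, the insulin-like growth factor pathway and immediate early factors have higher members without lower ones, which turned to 5 higher and 7 lower, 2 and 1, and 3 and 3 in that order with library totals in place of TMM factors.

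Signalling, growth and muscle lists held the called members described next, at shares that were often near the 7.16% of all genes. The share past the threshold was 4.51% for solute carriers, 8% for the myogenic list, 8.57% for immediate early and Klf factors, 8.93% for the Notch, Wnt, TGF-beta and BMP pathways, 11.1% for matrix-remodelling genes and 11.5% for the insulin-like growth factor pathway. Library totals in place of TMM factors gave 5 higher and 7 lower solute carriers, 4 and 9 antioxidant genes, 3 and 3 immediate early and Klf factors, 2 and 2 myogenic genes, 2 and 2 matrix-remodelling genes and 3 and 3 genes of the Notch, Wnt, TGF-beta and BMP pathways. Of 26 insulin-like growth factor pathway genes 3 were higher and 0 lower, or 2 higher and 1 lower with library totals. The fetal growth factor Igf2 had 861.9 and 901.8 CPM of input in control against 86.0 and 87.9 CPM in Lin28a+ MuSCs, and m6A-RIP levels of 2915 and 2796 CPM against 387.2 and 561.8 CPM. Both fell without overlap, the m6A-RIP count less, and the ratio was 0.88 higher (SE 0.21; adjusted p = 0.0321, edgeR's quasi-likelihood test), a call lost in 8 of 18 alternatives. Igfbp2, which binds insulin-like growth factors, rose in both assays and more in m6A-RIP, from 1131 and 1125 to 2365 and 2309 CPM (ratio 0.37 higher), and Eif4ebp2, named after its value was seen, was 0.36 higher with a call lost in 11 of 18 alternatives. In the imprinted list of 9 genes, Igf2 was higher and Zim1, a zinc finger gene, was lower, with 9 m6A-RIP rows that summed to 1314 and 1333 CPM in control against 538.3 and 545.1 CPM in Lin28a+ MuSCs (ratio change -0.62). Library totals gave 1 higher and 3 lower imprinted genes.

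Immediate early and Klf factors had 3 higher and 0 lower of 35. Klf2, a Krüppel-like transcription factor, had 5.85 and 7.72 CPM of input in control against 1.19 and 0.413 CPM in Lin28a+ MuSCs, while its m6A-RIP level was 28.5 and 33.6 CPM against 35.5 and 39.5 CPM. The ratio was 3.47 higher (SE 0.45), with Fos (1.91, lost in 4 of 17 alternatives) and Klf7 (0.89, named after its value was seen, lost in 8 of 18 alternatives) after it. The Lin28a+ inputs of Klf2 lay near the floor of 3 counts, so the size of its fold is uncertain. Of 133 solute carriers 6 were higher and 0 lower, among them the cystine transporter Slc7a11 (ratio 1.397 higher). Its input fell from 7.43 and 8.17 to 3.49 and 4.61 CPM while m6A-RIP rose from 18.3 and 19.1 to 23.9 and 22.7 CPM. The magnesium transporter Slc41a2 was also higher (1.08, lost in 1 of 18 alternatives). Of 56 genes of the Notch, Wnt, TGF-beta and BMP pathways 4 were higher, among them the TGF-beta inhibitor Smad7 (0.88). The Wnt receptor Fzd5 (1.14, lost in 2 of 18 alternatives) was another. Lgr5, a Wnt co-receptor, was lower (-0.89, lost in 7 of 18 alternatives). Matrix-remodelling genes had 3 higher of 27, with Lamb1 (0.70) and Nid2 (0.48), and the collagens 1 lower of 13, Col4a1 (-0.21). This is 7.69%, near the 7.16% of all genes, became 5 lower with library totals and 0 with DESeq2, and the Col4a1 call was lost in 9 of 18 alternatives.

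The myogenic list had 2 higher genes of 25. Megf10, a surface receptor of satellite cells, had 397.7 and 399.9 CPM of input in control against 87.3 and 88.2 CPM in Lin28a+ MuSCs. Its m6A-RIP level was 2.42 and 2.81 CPM in control against 4.30 and 3.66 CPM in Lin28a+ MuSCs, so that RNA fell and m6A-RIP rose, with a ratio 2.91 higher (SE 0.13; adjusted p = 3.37e-07, edgeR's quasi-likelihood test). The lineage factors Myod1, Pax7 and Myog did not pass (0.11, -0.07 and 0.09), though Myod1 passed in 2 of 18 alternatives. Sarcomere genes had 4 higher and 4 lower of 37 (21.6% past the threshold, beside 7.16%), which became 4 and 10 with library totals and 4 and 1 with DESeq2. The M-band genes Myom2 and Myom1 (1.61) and the actin nucleator Lmod3 (1.08) were higher with RNA that fell. The calcium pump Atp2a1 (-0.47) and troponin C, Tnnc1 (-0.31, lost in 2 of 18 alternatives), were lower. Myom2 m6A-RIP levels were 1115 and 1191 CPM in control against 1119 and 1250 CPM in Lin28a+ MuSCs while its input fell from 34.2 and 38.2 to 12.5 and 11.6 CPM.

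Antioxidant genes had 4 higher and 2 lower of 30 (20% past the threshold, beside 7.16%). The glutathione-synthesis subunit Gclm (0.94) and the peroxiredoxin Prdx5 (0.56) were higher, with Slc7a11, and superoxide dismutase Sod1 (-0.33) and thioredoxin Txn1 (-0.30) were lower. Lists with few changes under TMM factors were the Zfp transcripts (3 higher, 5 lower of 202), the chromatin modifiers (0 and 1 of 69, Hdac7, -0.78, lost in 7 of 18 alternatives), the stress granule proteins (0 and 1 of 34, Eif3a, -0.18, lost in 12 of 18 alternatives) and the Hox genes. With library totals the lower members became 14, 7 and 8 in the Zfp, chromatin and stress granule lists, and the median of all genes moved with them. Of the Hox genes 0 of 14 passed by edgeR's quasi-likelihood test, by DESeq2 or at an unadjusted p under 0.05.

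Some rows of the m6A-RIP table moved apart from others of the same gene. A row is a peak annotated to a transcript. The table used here gives no positions for its rows, so where on a transcript a change lay was not analysed here and no sequence is shown. Of the 354 called genes with 2 or more rows, the ratio moved in 1 direction in every row in 226 and in both directions in 128. The other 223 called genes had 1 row. The Nelfcd change lay in 1 of 3 rows: that row had 250.0 and 248.0 CPM in control against 17.1 and 15.9 CPM in Lin28a+ MuSCs, a change of -3.92, and the other rows changed by 0.06 each. In Tceal7 1 row fell from 131.2 and 136.7 to 0.67 and 0.55 CPM (-5.97), and the other row did not pass (-0.35). In Plxdc2 the first row rose from 61.7 and 59.6 to 114.4 and 100.2 CPM (3.15 higher relative to input), and its remaining 4 rows changed by between -0.76 and 0.53 without passing. Lmod3 likewise had 1 row of 4 that passed (1.29), whereas both rows of Coro7 (-2.51 and -2.30) and both rows of Reep1 (1.81 and 1.85) moved together. In Anxa3 and Tmem198b 1 row passed (-3.23 and -2.25), and the other changed by -0.16 and 0.04. Pdk2 and Rabep2 also had 1 row that passed (1.36 and 1.44), beside 1 that did not (0.55 and 0.02). In Igf2, 1 small row had 6.60 and 5.995 CPM in control against 2.02 and 50.84 CPM in Lin28a+ MuSCs, a spread between libraries that the 5 other rows did not show to that degree.

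**Figure D4:**
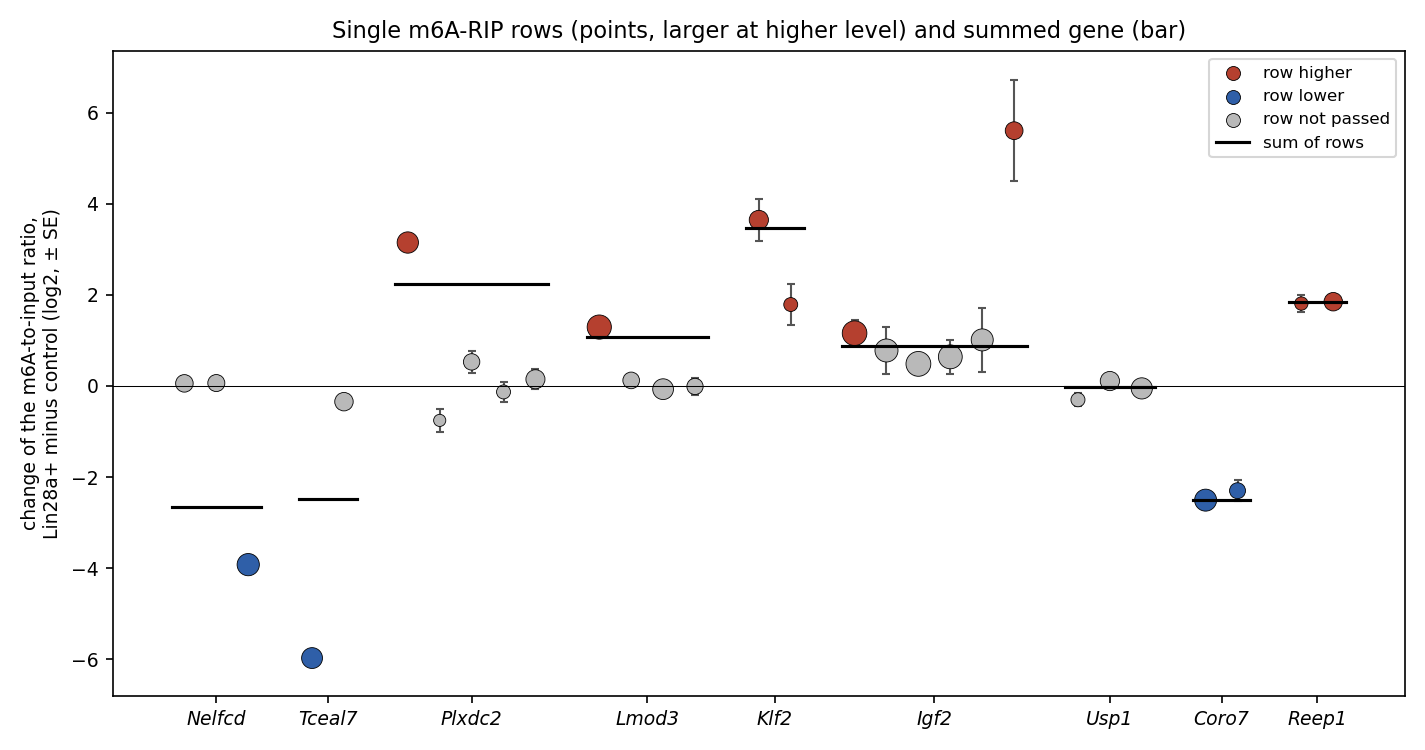
Change of the m6A-to-input ratio (log2, Lin28a+ minus control, with SE) of single m6A-RIP rows of 9 genes (points, larger at higher level; red and blue passed, grey did not) and of their sum (bars). Nelfcd, Tceal7, Plxdc2 and Lmod3 each hold 1 row that stands apart from the rest, whereas the rows of Coro7 and Reep1 lie together.

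Genes that lie next to another gene with changed RNA were frequent among the changes in which RNA did not pass. By RefSeq positions (GRCm38.p6), 2.48% of all genes tested overlapped or lay within 5 kb of a gene whose RNA was at least 2-fold higher, and 2.88% of one whose RNA was at least 2-fold lower. Among the 85 genes with a lower ratio and RNA that did not pass, 19 (22.4%) had a neighbour with lower RNA and 0 had one with higher RNA. Among the 48 genes with a higher ratio and RNA that did not pass, 6 (12.5%) had a neighbour with higher RNA and 2 (4.17%) one with lower RNA. Of the 89 genes with RNA up and m6A-RIP down, 10 (11.2%) had a neighbour with lower RNA and 5 (5.62%) one with higher RNA, and of the 74 with RNA down and m6A-RIP up 2 (2.70%) had one with higher RNA and 0 one with lower RNA. Whether the sequencing kit and the counting kept strands apart is not given in the sources used here, and reads of overlapping genes cannot then be told apart.

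Several of the leading genes were of this kind. Nelfcd (chromosome 2, 174415804 to 174427505) overlaps the cathepsin gene Ctsz (174427494 to 174439039), whose input fell from 451.4 to 36.9 CPM on average, a log2 change of -3.64, and the Nelfcd row that changed did so by -3.92. Pold2 (chromosome 11, 5872180 to 5878256) overlaps Aebp1 (5861866 to 5872248), a gene of the extracellular matrix, whose input fell from 196.4 to 17.2 CPM (-3.54), and Pold2 has 1 row. Coro7 overlaps Vasn (-2.05), Tmem198b overlaps Mmp19 (-1.81) and Rabep2 overlaps Atp2a1 (1.57). Mocs1 lies within 5 kb of Daam2, whose input rose from 1.75 to 22.6 CPM, Fah within 5 kb of Gm2115 (-3.23), and Mrpl35 within 5 kb of Reep1 (-1.23), while Apeh lies that close to Bsn and Pdk2 to Itga3, both of which rose. Rps13 lies within 5 kb of Pik3c2a (-1.16), Cdk4 of Marchf9 (1.25), and the histone gene H2bc8 of other histone genes that rose. Reep1, Mmp19 and Atp2a1 have changed ratios too, and the RNA of their neighbours changed by under 2-fold. Reep1 m6A-RIP rose by 0.62 while its RNA fell, beside Mrpl35 RNA that rose by 0.79. Mmp19 m6A-RIP rose by 0.40 while its RNA fell, beside Tmem198b RNA that did not pass (0.08). Atp2a1 m6A-RIP rose by 1.12, less than its RNA, beside Rabep2 RNA that did not pass (-0.01). The part of any of these neighbours in the change of the ratio was not tested. Mre11a, Ube2t, Rfc4, Dut, Tceal7, Plxdc2, Megf10, Cdk6 and Igf2bp3 had no neighbour within 5 kb whose RNA changed 2-fold. Smaller neighbour changes stood beside some of these: Rfc4 overlaps Eif4a2 (-0.71), Igf2bp3 overlaps Malsu1 (0.60) and Mre11a lies close to Ankrd49 (-0.57). Among the ribosomal protein and respiratory chain genes, Rps6 lies within 5 kb of Dennd4c (-0.69) and Cox6c of Vps13b (-0.87), and Cox7a2 overlaps Tmem30a (-0.87). In the repair lists, Eme1 (4.02 and 10.6 CPM of mean input in control and Lin28a+ MuSCs) overlaps Lrrc59 (398.5 and 603.1 CPM, a change of 0.57). Ercc1 overlaps Cd3eap (-0.16), Fanca overlaps Zfp276 (-0.10) and Fancd2 lies within 5 kb of Emc3 (-0.13). The part of these neighbours was not tested. Over the 7632 genes without a neighbour within 5 kb whose RNA changed 2-fold, 518 passed (6.79%), of which 233 were higher and 285 lower.

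**Figure D5:**
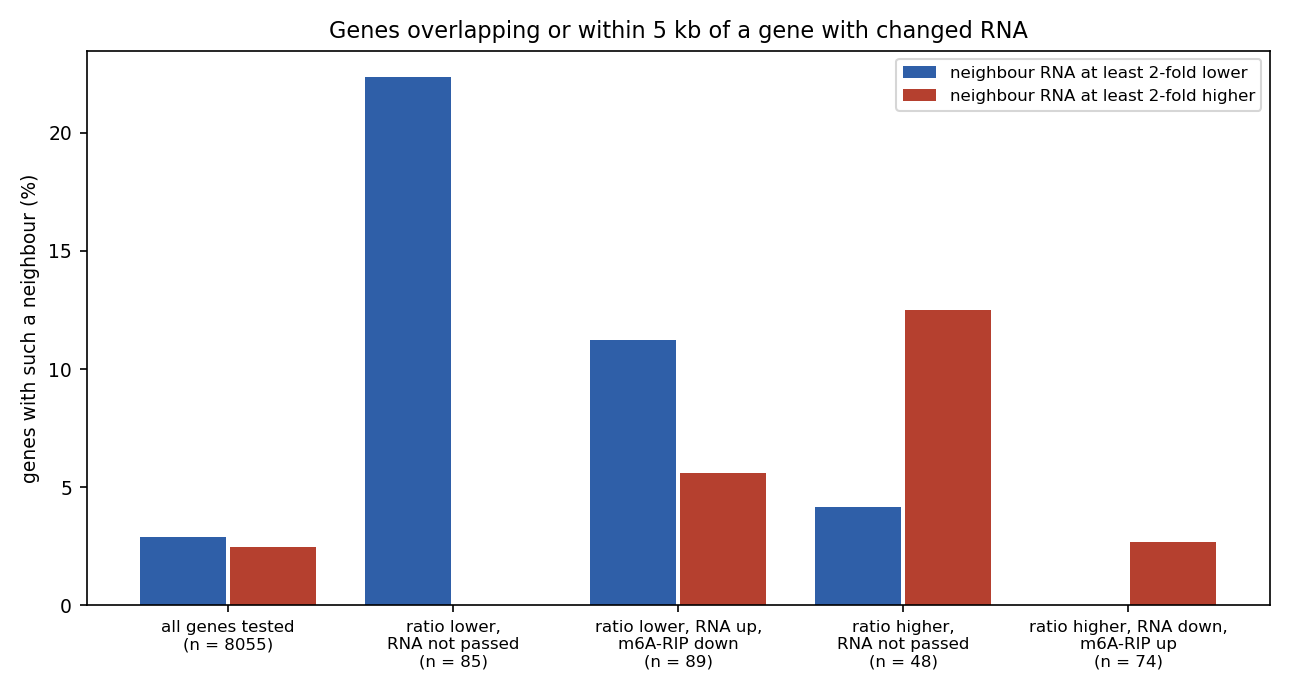
Share of genes (vertical axis, %) that overlap or lie within 5 kb of a gene whose RNA was at least 2-fold lower (blue) or higher (red) in Lin28a+ MuSCs, for all genes tested and for 4 kinds of changed ratio; n is the number of genes. The share with a falling neighbour is 22.4% where the ratio was lower and RNA did not pass, and 2.88% over all genes.

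The share of genes with a lower ratio moved with how much of a gene was measured. It was 3.39% among the 3599 genes with 1 m6A-RIP row and 7.84% among the 255 with over 5 rows, and it was 2.05% in the fifth of genes with the lowest input and 7.64% in the fifth with the highest, an order that is coarse because input values may be means over transcripts. The share with a higher ratio was 2.81% and 2.75% by rows and 3.79% and 3.29% by input. Genes with more rows or counts are measured with smaller error, and the part of this in the shares was not tested. By the proteins whose RIP tables list them, 2.94% of the 4291 genes in neither the Igf2bp3-RIP nor the Lin28a-RIP table were higher and 3.17% lower. Of the 1265 genes in the Igf2bp3-RIP table only, 4.19% were higher and 4.43% lower, of the 470 in the Lin28a-RIP table only, 3.19% and 4.68%, and of the 2029 in both, 2.81% and 5.52%. The median changes were -0.00, -0.02, -0.05 and -0.05, all small beside the middle 50% of all genes, which ran from -0.15 to 0.12.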

How the data were processed

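The authors deposited whole-number counts per row for the m6A-RIP libraries, a row being a peak annotated to 1 transcript, and estimated counts per gene for the input, both without scaling between libraries. Per the labels, the submitters' processing notes list FastQC, HISAT2 2.0.4, DESeq2 1.42.0 and MACS2 1.4.3 with the builds GRCh38 and mm10; the methods name Hisat2, MACS2 and GRCh38, a human assembly, although the genes are mouse genes. The counting program, the peak threshold and pooling are not given in the sources used here. Many input values are multiples of simple fractions, as a mean over transcripts would give, so single genes were compared by their changes and not by their levels, groups of genes by input and marker sums are coarse orders, and neither the ratio of control nor transcript length was used as a feature.

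Columns were assigned by name, the Lin28a+ columns to their group without a replicate number. Rows were summed by gene, and input genes were joined by RefSeq symbol (14232) or unique synonym (240), with 370 unmatched or ambiguous. Input was rounded to whole numbers. Both assays entered a single quasi-likelihood model in edgeR 4.0.16 (R 4.3.3), with TMM factors computed per assay (0.962 to 1.04), filterByExpr and the interaction as the test of the ratio. A call is a Benjamini-Hochberg adjusted p under 0.05. The common biological coefficient of variation was 4.06% (0.988% for input and 5.07% for m6A-RIP fitted alone). The scripts were tested on simulated data. Intervals are 95%. A level at or under 3 counts after rounding in both libraries of a group gets no fold. No molecular identifiers are described, so reads were not taken as single molecules.

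Named genes include those with the largest changes (8 each way, with at least 5 CPM). For these, both Lin28a+ m6A-RIP libraries over mean input had to lie on the same side of both control ones. Further rules took RNA changes under 0.1 (4 each way), opposite changes (4 each way) and the largest RNA changes at 20 CPM or more (4 each way). Genes the study is about were added, with up to 2 each way per list with the smallest p. Other names are marked. Members and the 27 lists were chosen with earlier results of these data known; 2 lists (mitochondrially encoded mRNAs and long non-coding RNAs) had 0 tested members. Alternatives were other size factors, no filter or at least 10 counts, DESeq2 1.42.0, limma-voom 3.58.1, each assay alone, the highest row per gene, a pseudocount of 0.1 CPM and each library left out; total counts without H19, genes without a changed neighbour and genes above the floor were added after seeing the data. The results of some genes are left out here.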

Additional observations from a re-analysis of the deposited data

How the results depend on the processing

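The count of 577 changed ratios (251 higher, 326 lower) was 1062 with total counts in place of TMM factors, of which 856 were lower, 344 with DESeq2 (157 higher, 187 lower) and 993 with each assay fitted alone (444 higher, 549 lower). Leaving out 1 library gave 305 to 631 calls, 131 to 267 higher and 174 to 364 lower. The low counts came without an input library: 358 without control input 1, 340 without control input 2, 305 and 344 without either Lin28a+ input; the libraries then left alone were assumed to vary like the others. Total counts moved the median of all genes from -0.02 to -0.14 and the split to 206 higher and 856 lower, and total counts without H19 gave 209 higher and 479 lower. Ratio changes are therefore relative to the median gene. The other settings stayed within 1.5 times the count. With the highest row of each gene, 582 genes passed, 497 of them shared with the sum of rows, and 12 of the 577 had the opposite sign. In all 18 alternatives 215 calls held (85 higher, 130 lower). Of the 79 called genes named by rule, 56 passed in every alternative that tested them (17 of the 18 for Mre11a, Erdr1, Gli2 and Klf2), 23 lost the call in at least 1, most often Eif3a, Uqcr11, Col4a1 and Igf2, and 0 changed direction. Of 12 called genes named after their values were seen, 8 lost the call in at least 1 alternative. No paired analysis was possible because the Lin28a+ m6A-RIP columns share 1 name and the numbers on the Lin28a+ input columns are those of m6A-RIP library names. Libraries of 2 per group and genes with few input counts limit what could be detected.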
